A study of Mus musculus with 10 samples.

Results

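Caveolae are flask-shaped pits of the plasma membrane, and 8 genes that build them or that set how much vesicular traffic crosses the brain endothelium were followed in brain endothelial cells (BECs) of APP/PS1 mice. The genes were taken as a named set, Mfsd2a, Cav1, Cav2, Cavin1, Cavin2, Cavin3, Plvap and Ehd2, and all 8 were present among the 14106 genes of the deposited table. RNA was sequenced from 10 BEC libraries, 5 from APP/PS1 mice and 5 from wild type controls of the same C3H/BL6 background, all female and 1 year old. APP/PS1 mice carry transgenes for mutant human amyloid precursor protein and presenilin and deposit amyloid in the brain. The cells were enriched from dissociated cortex, after removal of the meninges and of myelin, with magnetic beads against CD31, and the study checked their purity by flow cytometry for CD31 and CD45. Whether a library holds 1 mouse or a pool is not given in the sources used here, so p values measure the spread between libraries.

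The capillaries of the brain carry few caveolae, and this scarcity is part of the blood-brain barrier. Caveolin-1, from Cav1, is the membrane protein that curves the pit, and caveolin-2 joins it in the same complexes. The cavins form a coat on the cytoplasmic face, and EHD2 is an ATPase that holds the neck of the pit at the surface. MFSD2A carries lysophospholipids with docosahexaenoic acid (DHA) across the membrane and keeps caveola-mediated transcytosis low in brain endothelium. PLVAP forms the diaphragms of fenestrae and caveolae in leaky vessels and is scarce in the mature barrier.

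Values are log2 CPM, the logarithm of a gene's share of its library, a scale on which 1 unit is a doubling of a gene's share of the library. The deposited values had been corrected for batch, and each replicate number names 1 batch with 1 control and 1 APP/PS1 library. After that correction the batch means were nearly equal, with an SD over the 5 batches of 0.00353 log2 units in the median gene against 0.0863 for the halved difference between the libraries of a batch. The values of the libraries of a batch therefore mirror each other, and the 5 within-batch differences hold the information. For this reason the batch was kept in the model, although the sample labels give only 4 batches because replicates 4 and 5 share a number there. Library totals were between 22371766 and 126686149 adjusted counts, lowest for replicate 1 of both groups. Each value of the 8 genes rested on between 1406 and 148346 adjusted counts.

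The labelled cell type was checked first, because each of the 8 genes is also expressed outside the brain endothelium or in other vessels. The 17 endothelial marker genes, among them Cdh5, Cldn5 and Slc2a1, had mean levels between 10.47 and 10.58 log2 CPM in the 10 libraries. The mean of the pericyte markers lay between 2.97 and 4.75, and that of the smooth muscle markers between 2.98 and 4.40. It lay between 0.68 and 2.89 for astrocyte and between 0.75 and 4.36 for oligodendrocyte markers. Some single markers lay well above these means. The pericyte marker Rgs5 was 8.88 in control and 8.12 log2 CPM in APP/PS1 libraries, and Gja1, of the astrocyte list, was 7.09 and 7.36. In control libraries Mfsd2a was 8.50 and Cav2 8.55. Of 48 marker genes tested for 8 other cell types, 42 had a lower and 6 a higher mean in APP/PS1 than in control libraries. Among all genes, 48.2% had a higher mean. In bulk RNA, fewer cells of a type and less RNA per cell cannot be told apart.

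Upstream sequence is shown for 3 of the 8 genes. Cav1 and Cav2 are shown because they are neighbours at 1 locus, and Mfsd2a because its difference between genotypes had the smallest p of the set. Each line gives the 250 bases before the RefSeq transcription start on GRCm38.p6, the assembly also called mm10, in the direction of the gene. RefSeq windows were matched for 6 of the 8 genes. Capitals mark matches to 3 short motifs on either strand. The GC box was searched as GGGCGG, the binding letters of SP1. The CCAAT box was searched by the letters of its name. The core of the TCF/LEF motif was searched as CTTTGA. Where the match is on the other strand, the capitals spell the reverse complement, and matches did not overlap in these windows.
Mfsd2a, minus strand, chr4:122961189-122961438: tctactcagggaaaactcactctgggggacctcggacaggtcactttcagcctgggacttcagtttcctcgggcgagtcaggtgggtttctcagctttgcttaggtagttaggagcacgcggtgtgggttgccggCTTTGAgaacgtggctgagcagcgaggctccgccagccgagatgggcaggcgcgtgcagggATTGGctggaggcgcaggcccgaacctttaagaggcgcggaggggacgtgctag
Cav2, plus strand, chr6:17280935-17281184: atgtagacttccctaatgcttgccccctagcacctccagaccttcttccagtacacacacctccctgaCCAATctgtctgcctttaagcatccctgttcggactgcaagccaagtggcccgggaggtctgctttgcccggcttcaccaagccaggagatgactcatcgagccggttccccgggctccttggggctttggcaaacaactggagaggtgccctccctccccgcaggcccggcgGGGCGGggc
Cav1, plus strand, chr6:17306085-17306334: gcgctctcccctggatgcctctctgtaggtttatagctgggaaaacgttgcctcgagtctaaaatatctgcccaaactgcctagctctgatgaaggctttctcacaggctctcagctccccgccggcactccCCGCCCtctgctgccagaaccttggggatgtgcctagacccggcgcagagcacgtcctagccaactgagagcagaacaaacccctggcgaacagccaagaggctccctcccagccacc
The 3 windows were rich in G and C, with 61.6% for Mfsd2a, 62.0% for Cav2 and 59.6% for Cav1, compared with a median of 52.4% over 32851 windows of the same length. Mfsd2a held 17 CpG dinucleotides, Cav1 and Cav2 10 each, and the median window 6. A GC box starts 118 bases before the start of Cav1 and 9 bases before that of Cav2, and 32.7% of all windows hold one. RefSeq gave 2 windows for Cav1, and the one shown lies right before the annotated start of the gene. The other Cav1 window, not shown, held 12 CpG dinucleotides and no match to any of the motifs. A CCAAT box lies 54 bases before the start of Mfsd2a and one lies in the Cav2 window, and this box is found in 33.8% of windows. The TCF/LEF core of the Mfsd2a window lies 115 bases before its start, and 13.8% of windows hold those letters. TCF/LEF factors act at the end of Wnt/beta-catenin signalling, a pathway of barrier maturation. A match describes letters and is not evidence of binding.

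With the batch in the model, limma called 0 of the 14106 genes at an adjusted p under 0.05 (0%), so none of the 8 genes was called. An unadjusted p under 0.05 was found for 1133 genes (8.03%), and again for 0 of the 8. Without the batch in the model 648 genes (4.59%) were called, and still 0 of the 8. The mean was higher in APP/PS1 than in control libraries for 7 of the 8 genes, compared with 48.2% of all genes. It was also higher for 13 of the 17 endothelial markers. The median log2 fold change of the set was 0.07, that of all genes was −0.00377, and the differences of the 8 genes come from the same 5 pairs of libraries, so they are not separate evidence. Higher values in at least 4 of the 5 batches were found for 4 of the 8 genes, Mfsd2a, Cavin1, Cavin2 and Ehd2, against 20.7% of all genes. Among the endothelial markers, Slco1c1, Flt1, Tek, Cdh5, Pecam1, Abcb1a and Eng were also higher in at least 4 batches, and the others were not. None of the 8 went the same way in all 5 batches, as 7.99% of genes did, and in none were control and APP/PS1 libraries fully separated, as they were in 7.88% of genes.

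**Figure D1:**
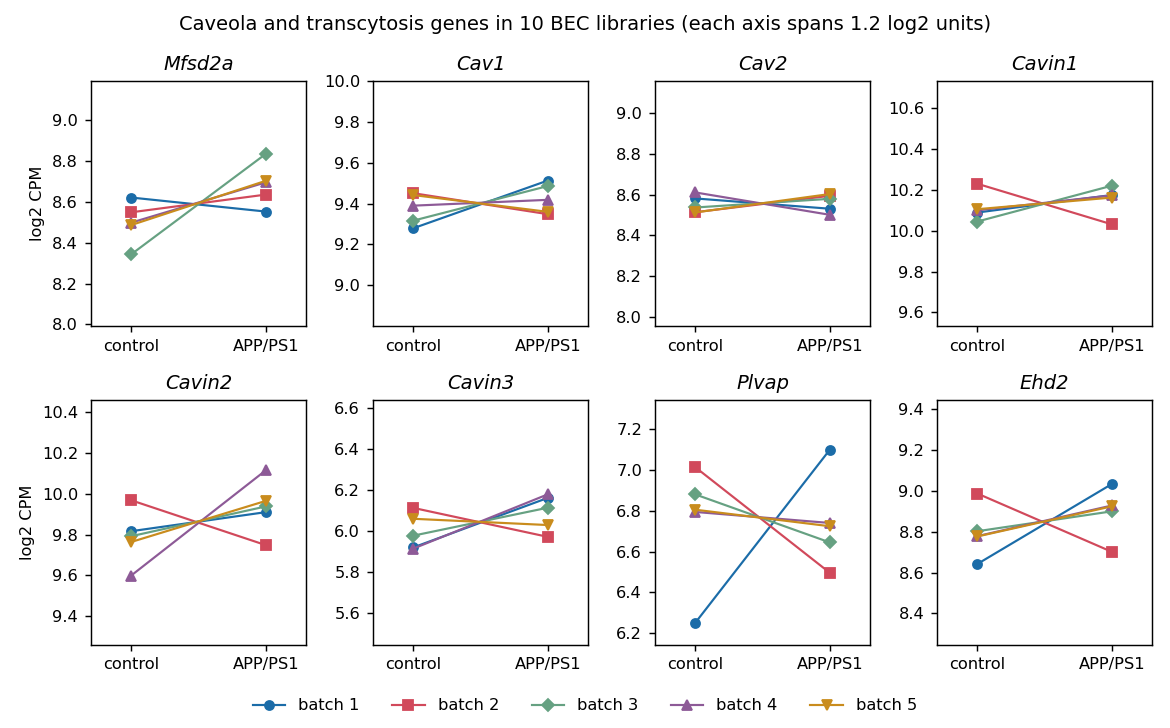
Levels of the 8 genes in log2 CPM (vertical axes, each spanning 1.2 log2 units) in control and APP/PS1 libraries, with a line joining the libraries of a batch. The lines cross because the batch means were set equal by the authors' correction, and Plvap has the widest spread, from 6.25 to 7.10.

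Mfsd2a (ENSMUSG00000028655, chromosome 4, 122946850 to 122961188 of GRCm38), the lipid carrier that restrains transcytosis, had the largest difference of the set. In the control libraries of batches 1 to 5 it was 8.62, 8.55, 8.34, 8.50 and 8.49 log2 CPM, and in the APP/PS1 libraries 8.55, 8.64, 8.84, 8.70 and 8.70. The APP/PS1 library was the higher in every batch except batch 1, the groups overlapped, and batch 3 held both the lowest control and the highest APP/PS1 library. Means were 8.50 ± 0.10 and 8.68 ± 0.10 (SD, n = 5 each). The log2 fold change was 0.18 (standard error 0.0858, 95% interval −0.03 to 0.40, adjusted p = 0.689 from limma), a fold of 1.14 with an interval from 0.982 to 1.32. The two-sided exact sign-flip test over the 5 batches gave p = 0.125, and 5 batches cannot bring that test under 0.05. The within-batch difference was −0.07 in batch 1 and 0.49 in batch 3. Without batch 3 the log2 fold change was 0.11, and without batch 1 it was 0.25, with adjusted p values of 0.995 and 0.913 from limma.

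The caveolins lie next to each other on chromosome 6, with 17219 bases between the end of Cav2 (ENSMUSG00000000058, 17281185 to 17289115) and the start of Cav1 (ENSMUSG00000007655, 17306335 to 17341452), both on the plus strand. Cav1 was 9.28, 9.45, 9.32, 9.39 and 9.44 log2 CPM in the control libraries of batches 1 to 5, and 9.51, 9.35, 9.49, 9.42 and 9.36 in the APP/PS1 libraries. The groups overlapped, and the APP/PS1 library was the higher in 3 of 5 batches. The log2 fold change of Cav1 was 0.05 (standard error 0.0678, 95% interval −0.12 to 0.22, adjusted p = 0.897 from limma).
Cav2 was the steadiest gene of the set, at 8.58, 8.51, 8.54, 8.61 and 8.51 log2 CPM in control and 8.53, 8.59, 8.58, 8.50 and 8.60 in APP/PS1 libraries. All 10 libraries lay between 8.50 and 8.61. Its log2 fold change was 0.01 (95% interval −0.11 to 0.14, adjusted p = 0.972 from limma), so that folds outside 0.924 to 1.10 lay beyond the interval. The residual SD of Cav2 was 0.0617 log2 units, below the median of 0.122 over all genes. Although neighbours, Cav1 and Cav2 differed in opposite directions in 4 of the 5 batches.

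Among the coat genes, Cavin1 (ENSMUSG00000004044, chromosome 11, 100956733 to 100970887), whose protein is required for caveolae to form, was the most strongly expressed. Its levels were 10.09, 10.23, 10.05, 10.10 and 10.11 log2 CPM in the control and 10.18, 10.03, 10.22, 10.17 and 10.16 in the APP/PS1 libraries of batches 1 to 5. Batch 2 held the highest control and the lowest APP/PS1 library, and in the other 4 batches the APP/PS1 library was the higher. The log2 fold change was 0.04 (standard error 0.0650, 95% interval −0.12 to 0.20, adjusted p = 0.916 from limma). Without batch 2 it was 0.10.
Cavin2 (ENSMUSG00000045954, chromosome 1, 51289126 to 51302960), whose protein shapes the membrane of the pit, was 9.82, 9.97, 9.79, 9.60 and 9.76 in control and 9.91, 9.75, 9.94, 10.11 and 9.96 log2 CPM in APP/PS1 libraries. The APP/PS1 library was the higher in 4 of 5 batches, by 0.52 in batch 4, and the lower by 0.22 in batch 2. Its log2 fold change of 0.15 (standard error 0.105, 95% interval −0.11 to 0.41, adjusted p = 0.818 from limma) was 0.06 without batch 4 and 0.24 without batch 2.
Cavin3 (ENSMUSG00000037060, chromosome 7, 105480083 to 105482300), whose protein is recruited to the coat by Cavin1, was the weakest of the 3. It was 5.92, 6.11, 5.98, 5.91 and 6.06 in control and 6.16, 5.97, 6.11, 6.18 and 6.03 log2 CPM in APP/PS1 libraries, and the groups overlapped. The log2 fold change of Cavin3 was 0.09 (95% interval −0.09 to 0.28, adjusted p = 0.837 from limma). In GENCODE M21, 374 exon bases of Cavin3 overlap Gm45667, a transcript still to be experimentally checked on the opposite strand. The strand setting of the counting is not given in the sources used here, so reads of the pair cannot be told apart.

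Ehd2 (ENSMUSG00000074364, chromosome 7, 15946958 to 15967567), the neck ATPase, was 8.64, 8.99, 8.80, 8.78 and 8.78 log2 CPM in control and 9.03, 8.70, 8.90, 8.93 and 8.92 in APP/PS1 libraries. Batches 1 and 2 held both ends of the range, in opposite order, while batches 3 to 5 differed by 0.10, 0.15 and 0.15. The log2 fold change was 0.10 (standard error 0.0987, 95% interval −0.14 to 0.34, adjusted p = 0.855 from limma). It was 0.20 without batch 2 and 0.03 without batch 1.

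Plvap (ENSMUSG00000034845, chromosome 8, 71497765 to 71511752), the diaphragm gene, had nearly equal means but the widest spread of the set. In the control libraries it was 6.25, 7.01, 6.88, 6.79 and 6.80 log2 CPM, and in the APP/PS1 libraries 7.10, 6.50, 6.64, 6.74 and 6.72. Batch 1 held the lowest and the highest of the 10 libraries. The APP/PS1 library was higher by 0.85 in batch 1 and lower in each of the other 4, by between 0.05 and 0.52. Means were 6.75 ± 0.29 and 6.74 ± 0.22 (SD, n = 5 each). The log2 fold change was −0.01 (standard error 0.195, 95% interval −0.49 to 0.47, adjusted p = 0.996 from limma), an interval of 0.713-fold to 1.39-fold. Without batch 1 it was −0.22 (adjusted p = 0.951 from limma). It turned positive when any other batch was left out, at 0.12 without batch 2 and between 0.0036 and 0.049 without batch 3, 4 or 5. The residual SD of 0.363 was larger than in 89.5% of all genes. The interval of Plvap covers the log2 fold changes of all the other genes of the set, none of which was called. These libraries therefore do not settle whether Plvap differs by as much.

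**Figure D2:**
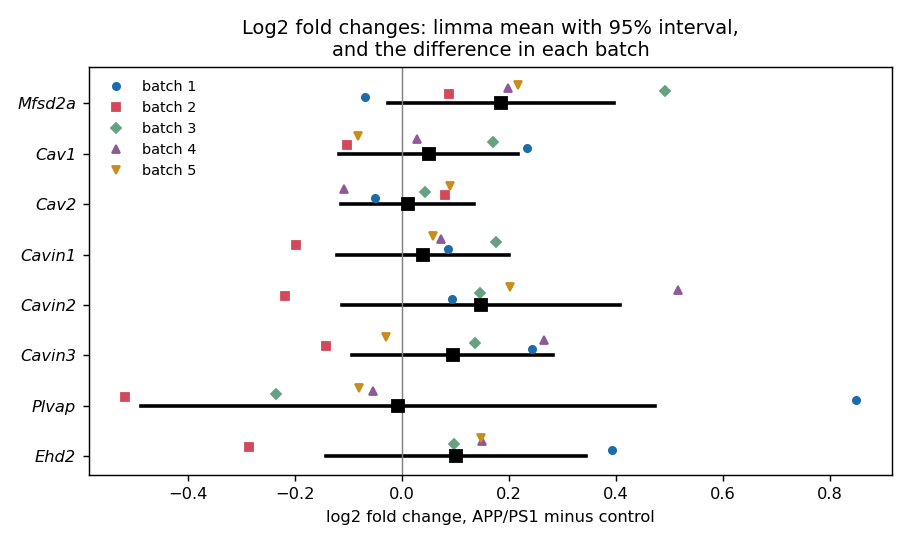
Log2 fold change of each gene (horizontal axis, APP/PS1 minus control) as the limma mean (black square) with its 95% interval (black line), and the difference in each batch (coloured symbols). All 8 intervals cover 0, and the batch 1 and batch 2 symbols of Plvap lie at 0.85 and −0.52.

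Levels were compared between the genes per kilobase of exon, as mean log2 CPM per kilobase over the 10 libraries. The order was Cavin1 at 8.29, Cavin2 at 8.25, Cav1 at 7.62, Mfsd2a at 7.42, Cav2 at 6.82, Ehd2 at 6.49, Plvap at 5.75 and Cavin3 at 5.31. The ranges of libraries overlapped between Cavin1 and Cavin2, between Cav1 and Mfsd2a, and between Plvap and Cavin3. In the other 4 steps between neighbours the ranges of the libraries did not overlap, with differences in the mean from 0.33 between Cav2 and Ehd2 to 0.74 between Ehd2 and Plvap. On the scale of log2 CPM without length, 5 of the 8 genes, Cav1, Cavin1, Cavin2, Ehd2 and Mfsd2a, lay above at least 97.2% of all genes. Cav2 lay above 97.1%, Plvap above 85.6% and Cavin3 above 76.6%.

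A ratio of one gene to another within a library does not depend on how the library was scaled. Here Plvap, Cav1 and Ehd2, genes of caveolae or their diaphragms, were each set against Mfsd2a, which restrains transcytosis. The log2 ratio of Plvap to Mfsd2a was −2.37, −1.54, −1.46, −1.70 and −1.68 in the control libraries of batches 1 to 5, and −1.45, −2.14, −2.19, −1.96 and −1.98 in the APP/PS1 libraries. The log2 ratio of Cav1 to Mfsd2a was 0.66, 0.90, 0.97, 0.89 and 0.96 in control, and 0.96, 0.71, 0.65, 0.72 and 0.66 in APP/PS1 libraries. In both ratios the APP/PS1 library was lower in batches 2 to 5 and higher in batch 1. The Ehd2 to Mfsd2a ratio had the same order, with differences of 0.46, −0.37, −0.39, −0.05 and −0.07 in batches 1 to 5. Mean differences were −0.19 ± 0.65 for Plvap, −0.14 ± 0.25 for Cav1 and −0.08 ± 0.35 for Ehd2 (SD over 5 batches), all within the spread between batches. Without batch 1 they were −0.47, −0.25 and −0.22, and without batch 3 they were −0.0592, −0.0889 and −0.00705. The ratios share Mfsd2a and were formed from genes chosen with earlier results known, so no test was made.

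**Figure D3:**
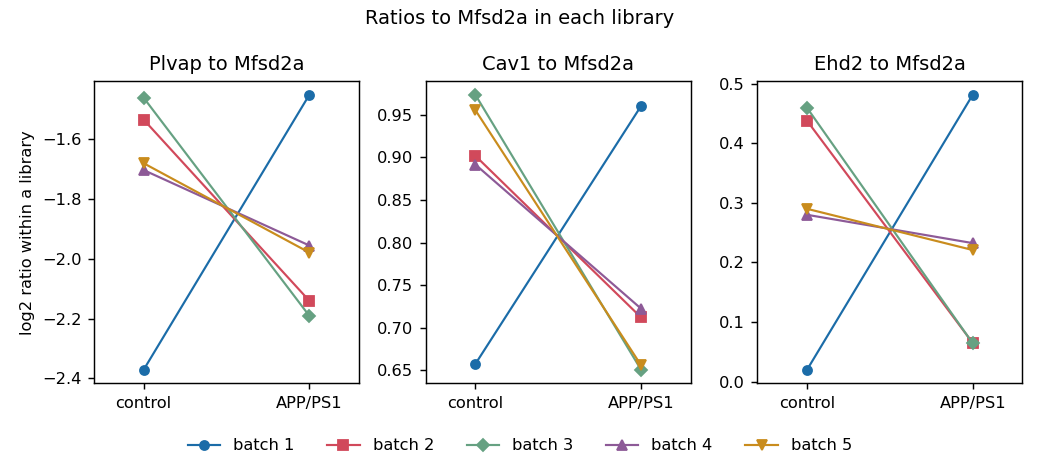
Log2 ratios of Plvap, Cav1 and Ehd2 to Mfsd2a within each library (vertical axes, log2 units), with a line joining the control and APP/PS1 library of a batch. Batch 1 runs upward in all 3 panels and the other 4 batches run downward.

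The direction of the differences varied by batch. In batches 1 to 5, the APP/PS1 library was the higher for 6, 2, 7, 6 and 5 of the 8 genes, with medians of 0.16, −0.17, 0.14, 0.11 and 0.07 log2 units, while the median of all genes stayed within 0.01 of 0 in each batch. Batch 2 was the exception, with only Mfsd2a and Cav2 higher. Endothelial markers differed the same way on a smaller scale, with median differences of 0.06, −0.05, 0.12, 0.09 and 0.03.
The median oligodendrocyte and the median astrocyte marker differed the opposite way to Cavin1, Cavin2 and Ehd2 in every batch. The oligodendrocyte list had median differences of −4.09, 1.49, −1.83, −3.75 and −2.08, and the astrocyte list −2.60, 0.45, −1.86, −1.21 and −0.20, in batches 1 to 5. Both medians were above 0 only in batch 2, the batch in which Cavin1, Cavin2 and Ehd2 were lower. Single markers departed from this. Gja1, a connexin gene of the astrocyte list, had the signs of Cavin1, Cavin2 and Ehd2 in all 5 batches. Its level, 7.09 in control and 7.36 log2 CPM in APP/PS1 libraries, was above those of the other astrocyte markers. Gfap, Cnp and Cldn11 were lower in APP/PS1 in batch 2 as well. The astrocyte markers Aqp4 and Aldh1l1 were higher in APP/PS1 in batch 5, by 0.17 and 1.77. By library, the mean of 6 tested oligodendrocyte markers ranged from 1.19 to 4.36 log2 CPM in control and from 0.75 to 3.62 in APP/PS1, and that of 8 astrocyte markers from 1.79 to 2.89 and from 0.68 to 2.28. The mean of the pericyte markers ranged from 3.97 to 4.75 in control and from 2.97 to 4.02 in APP/PS1. All 8 pericyte markers had a lower mean in APP/PS1 (median log2 fold change −0.77). An unadjusted p under 0.05 was found for 6 of them, against 8.03% of all genes, and an adjusted one for 0. All 6 smooth muscle markers and all 4 fibroblast markers tested were also lower in the mean, with medians of −0.80 and −0.58, and 6 and 1 of them had an unadjusted p under 0.05, with 0 called. Caveolae are abundant in smooth muscle and fibroblasts, which also express caveolins and cavins. Neuron markers had a median of −0.61 and choroid plexus markers one of −0.83, in 4 tested genes each. Microglia markers had a median of −0.09 in 8 genes. Their part in the differences of the 8 genes was not tested. With each library centred on its endothelial markers, a setting chosen after the values were seen, the log2 fold changes of the set lay between −0.05 for Plvap and 0.15 for Mfsd2a, and that of Cavin1 was −0.000756.

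**Figure D4:**
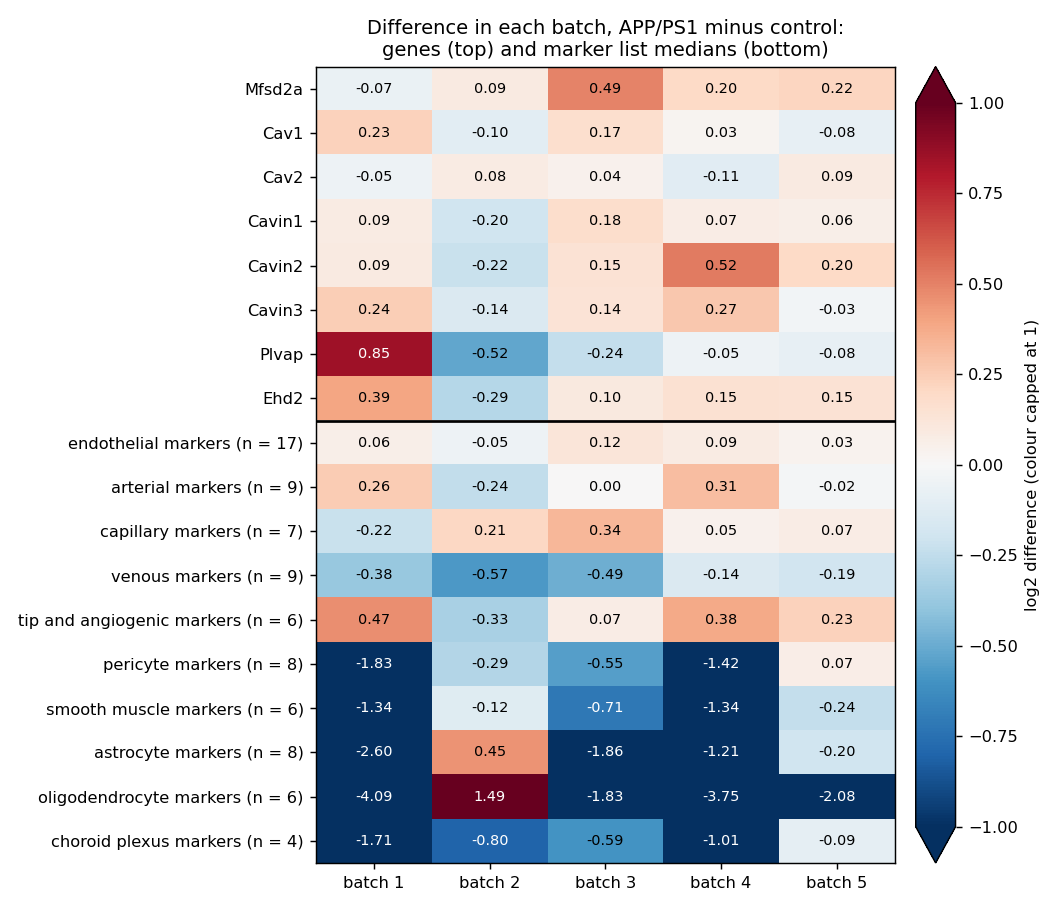
Difference between the APP/PS1 and the control library of each batch (columns), in log2 units, for the 8 genes and for the median gene of 10 marker lists (rows). Red is higher and blue lower in APP/PS1, and the colour stops at 1 while the printed numbers do not. The oligodendrocyte and astrocyte medians are above 0 only in batch 2.

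Position along the vascular tree bears on these genes, because Mfsd2a is strongest in capillaries while Cav1 and Plvap are stronger in other segments. Of the 7 capillary markers, 5 had a higher and 2 a lower mean in APP/PS1 libraries. Their median differences were −0.22, 0.21, 0.34, 0.05 and 0.07 in batches 1 to 5, the same signs as Mfsd2a. Of the single capillary markers, only Slc7a5 and Tfrc had those signs in all 5 batches. The 3 capillary markers with the smallest p were all higher in the mean. Slc16a1, a lactate carrier, had a log2 fold change of 0.15, Slc7a5, an amino acid carrier, of 0.16, and Tfrc, the transferrin receptor, of 0.22, with adjusted p values of 0.637, 0.666 and 0.733 in the same fit. Slc16a1 was higher in all 5 batches, unlike Mfsd2a, and the lower means were those of Slc22a8 (−0.0486), an anion carrier, and Car4 (−0.0248), a carbonic anhydrase. The 9 arterial markers had median differences of 0.26, −0.24, 0.00357, 0.31 and −0.02, the same signs as Cav1 and Cavin3. Of the single arterial markers, only Hey1 and Bmx had those signs in all 5 batches. The 6 tip cell and angiogenic markers stood at 0.47, −0.33, 0.07, 0.38 and 0.23.
The 9 venous markers were lower in APP/PS1 without exception (median −0.30 log2 units), with medians below 0 in all 5 batches. An unadjusted p under 0.05 was found for 4 of them, against 8.03% of all genes, with 0 called after adjustment. Nr2f2, a transcription factor of venous identity, had a log2 fold change of −0.38 (adjusted p = 0.483 from limma) and was lower in 5 of 5 batches. Slc38a5, a glutamine carrier, had −0.43 and Vwf, von Willebrand factor, −0.30, each lower in 4 of 5 batches, with adjusted p values of 0.577 and 0.581. Whether these levels contribute to those of Mfsd2a, Cav1 or Plvap was not tested.

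Other genes of the vesicle pathways were taken from 7 lists with 78 tested genes, of which 43 had a higher and 35 a lower mean in APP/PS1 libraries. None was called after adjustment by limma, and 3 had an unadjusted p under 0.05, against the 8.03% of all genes given above.
Among 8 accessory genes of caveolae 4 were higher and 4 lower (median −0.00232). Pacsin3, whose F-BAR protein bends membranes, had the lowest unadjusted p of this list at a low level, 1.64 ± 0.20 in control and 1.23 ± 0.21 log2 CPM in APP/PS1 (log2 fold change −0.42, adjusted p = 0.598 from limma). Cavin4, the muscle cavin, had 0.22, and Ehd3, a relative of Ehd2, had −0.08. Of 11 genes for proteins of rafts and caveolae, Fyn, a Src family kinase, had a log2 fold change of 0.19 (adjusted p = 0.637 from limma). Scarb1, a lipoprotein receptor, had 0.07 and was higher in all 5 batches, though by only 0.000308 in batch 2, and Flot1, a flotillin, had −0.08.
The clathrin route, by which receptors are taken up, was higher in the mean for 13 of 17 genes with a small median of 0.05. Picalm, a clathrin assembly protein and an Alzheimer's disease risk gene, was 9.48 ± 0.08 in control and 9.67 ± 0.08 log2 CPM in APP/PS1 libraries, higher in 4 of 5 batches (log2 fold change 0.19 with a standard error of 0.0719, limma adjusted p = 0.598). Itsn1, an endocytic scaffold, had −0.14 and was lower in all 5 batches, and Fcho2, which starts clathrin pits, had 0.12. Of 14 genes of endosomal sorting 6 were higher. Mall, a MAL family protein of apical transport, had the largest value, 0.37, with an adjusted p of 0.733 from limma. Its differences were 0.70, −0.34, 0.53, 0.91 and 0.07 in batches 1 to 5, the signs of Cavin1, Cavin2 and Ehd2. Rab5a, of early endosomes, had 0.09 and Vps35, of the retromer, −0.06.

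**Figure D5:**
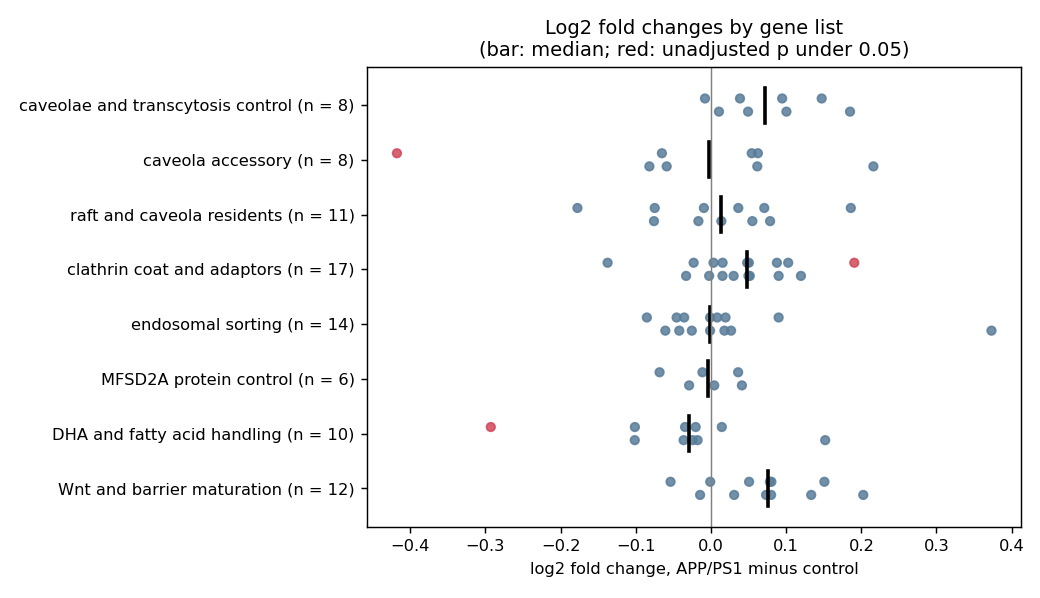
Log2 fold change of each tested gene (horizontal axis, APP/PS1 minus control) in the set of 8 genes and in 7 related lists, with n genes each. Black bars are medians, which lie between −0.03 and 0.08, and the 3 red points have an unadjusted p under 0.05.

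For the control of MFSD2A, the 6 listed genes of the pathway that sets the stability of the protein had log2 fold changes between −0.07 and 0.04. Nedd4, a ubiquitin ligase, had 0.04, and Akt2, a kinase gene, had −0.07, and all 6 had adjusted p values of 0.892 or more from limma. Of 10 tested genes listed for the handling of DHA and other lipids, 8 were lower in the mean. Acsl4, an acyl-CoA synthetase with a preference for arachidonic acid, was 6.15 ± 0.04 in control and 5.86 ± 0.04 log2 CPM in APP/PS1 libraries and was lower in all 5 batches, by between 0.16 and 0.38. Its log2 fold change of −0.29 had a standard error of 0.0511 and did not pass the adjustment (limma, adjusted p = 0.368). Its relatives stood at 0.15 (Acsl3) and −0.10 (Acsl6). In the Wnt and barrier maturation list 9 of 12 genes were higher, with a median of 0.08. Sox17, a transcription factor of arterial endothelium, had 0.20 and was higher in 4 of 5 batches, Lrp6, a Wnt coreceptor, had 0.08, and Axin2, a target of the pathway, had 0.13, with adjusted p values between 0.671 and 0.790 from limma.

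Genes with the batch pattern most like that of 3 members were found among 7647 other genes with a mean of at least 4 log2 CPM, by the Pearson correlation of the 5 within-batch differences. With 5 points and so many genes, very high values arise easily, so these names are a description. For Mfsd2a they were Cops2 (r = 0.996), Atl2 (0.994) and Klhl8 (0.992), for Plvap Hnrnpa2b1, Dock5 and Gripap1 (each 0.998 or more), and for Cav1 1110038B12Rik (0.999), Pafah1b1 (0.995) and Pik3c2a (0.991). Hnrnpa2b1 was higher in all 5 batches, unlike Plvap, since the correlation ignores the mean difference. Within the set, Ehd2 had the highest correlation with Plvap (r = 0.881), although the differences of Ehd2 and Plvap had opposite signs in batches 3 to 5. The correlation of Mfsd2a with Plvap was negative (r = −0.568).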

How the data were processed

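BECs of APP/PS1 and control mice were profiled by RNA-seq in 5 libraries each. Reads were aligned by the authors with STAR to mm10 and assigned to genes with HTSeq. The authors removed weakly expressed genes and took log CPM in edgeR, then corrected for batch with ComBat of sva, in the order their methods give. Versions and strand setting are not given in the sources used here. The 10 single-library files equalled their columns of the table. In each library 100% of the deposited log2 values converted to whole numbers (tolerance 0.001) with a prior count of 3, so they stand for adjusted counts after batch correction and not for reads. This differs from the order in the methods, where log CPM comes before the correction, and the difference was not resolved. The main fit computed no counting error from the adjusted counts. An alternative fit with voom, which weights values by the trend of variance with level, did use them as counts. Fold changes of low genes are understated.

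With R 4.3.3 and limma 3.58.1, lmFit and eBayes were run on the log2 values of 14106 genes with genotype and the 5 replicate numbers as terms, with Benjamini-Hochberg adjustment over all genes (threshold 0.05). The pairing comes from the batch numbers the study plotted for its replicates. Deviations of same-numbered libraries had rank correlations between −0.999 and −0.989 over 10873 genes, a sign fixed by the correction. The test was checked on simulated data. The genes, lists and tests were chosen with earlier results of these data known. Named genes were the 8 genes, the 3 with the smallest p in each pathway list, the 3 most similar in pattern to Mfsd2a, Plvap and Cav1, and markers moving with them. Some genes that this rule names are not reported here. Symbols, positions and exon lengths came from GENCODE M21 (GRCm38), in which 14106 of 14106 genes were found, and upstream sequence from RefSeq GRCm38.p6. Alternatives changed the block, the scaling, the prior count, the filter, the variance model and the batches included.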

Additional observations from a re-analysis of the deposited data

Results flagged for a closer look

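In 62 groups of 5 libraries, a gap test found 8 single libraries whose distance to the nearest other passed the 95% limit of Dixon's test relative to the group's range, where chance gives about 5% of groups. Because batch means were set equal, a library that stands apart in 1 group tends to have a mirror image in the other, so these are not independent. Plvap in control replicate 1 was 6.25 log2 CPM, against 6.79 for the next library. The log2 ratio of Plvap to Mfsd2a was −2.37 there, against −1.70. The log2 ratio of Cav1 to Mfsd2a was 0.66 in control replicate 1 and 0.96 in APP/PS1 replicate 1, against 0.89 and 0.72 for the nearest others. These are the libraries with the fewest adjusted counts. In batch 2, the mean of the raft and caveola genes was 7.08 in the control and 6.87 in the APP/PS1 library, that of the clathrin genes was 7.47 in the APP/PS1 library, and that of the oligodendrocyte markers was 1.19 in the control library, where the next was 4.03.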

How the results depend on the processing

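None of the 8 genes was called in any of 14 alternative settings, 13 of them planned, and 103 of 112 values kept their sign. Mfsd2a, Cav1, Cavin2, Cavin3 and Ehd2 were higher in APP/PS1 in all 14. With no replicate block, which ignores that the batch means were set equal, limma called 648 genes (4.59%), 3049 had an unadjusted p under 0.05, of which 18 were in the pathway lists, and the adjusted p of Mfsd2a was 0.123, the smallest of the set under any setting. The 4 batches of the labels gave 1 called gene. Cav2 was −0.0267 when libraries were scaled to their totals only, and −0.0288 when they were centred on endothelial markers, where Cavin1 was −0.000756. Each batch left out in turn gave log2 fold changes of 0.11 to 0.25 for Mfsd2a, 0.00321 to 0.0875 for Cav1, −0.00925 to 0.0407 for Cav2, 0.00433 to 0.10 for Cavin1, 0.06 to 0.24 for Cavin2, 0.05 to 0.15 for Cavin3, −0.22 to 0.12 for Plvap and 0.03 to 0.20 for Ehd2. It gave differences in the log2 ratio to Mfsd2a of −0.47 to −0.06 for Plvap, −0.25 to −0.09 for Cav1 and −0.22 to −0.00705 for Ehd2. Over all genes it gave 0 to 5 calls, 748 to 2008 genes at an unadjusted p under 0.05, and 1 to 11 such genes in the pathway lists, against 0, 1133 and 3 with all batches. The highest of these 3 counts came without batch 2. The causes were not tested. Plvap and Cavin3, at the lowest levels of the set, still rested on at least 1406 adjusted counts.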
